A study of Arabidopsis thaliana with 4 samples.

Results

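The transcripts described here are 75 probe sets of the Affymetrix ATH1 array that were at least 2-fold lower after systemic wounding in both wild type (wt) and opr3 plants of Arabidopsis thaliana. They came from 22746 plant probe sets, of which 14599 reached a log2 value of 4.73 in at least 1 of the 4 arrays and were compared; these are called the tested probe sets. A member had a wounded minus control difference of -1 or lower on the log2 scale in each line. The members were chosen by their measured wounding differences on these arrays, so these differences are given as a description, and nothing is read from the fact that the members are low in wounded plants. Of all tested probe sets, 80 (0.548%) met both limits, and 5 were left out by name: BZIP61, BHLH101, AT1G13650, AT3G07010 and AT4G27280. The shared 80 were 30.7% of the 261 probe sets lower in wt (1.79% of all tested) and 32.7% of the 245 lower in opr3 (1.68%).

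The study had 4 groups with 1 array each: wt and opr3 plants, each line either unwounded (control) or wounded on other leaves of the plant. All plants were 6 weeks old and were kept at 21 °C in short days of 10 h light and 14 h darkness. In wounded plants a portion of the rosette leaves was clamped with tweezers across the midvein, and RNA was taken 2 h later from unclamped leaves of the same rosettes. The sources used here give neither the number of plants behind an array nor the opr3 allele or accession background, and the label that describes treatment names wt plants for opr3 wounded too, so this group rests on its title. With 1 array per group no difference has a replicate check, and no p-value or standard error could be computed. In such bulk leaf samples, fewer cells of a type and less RNA per cell cannot be told apart.

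A wounded leaf sends electrical, calcium and chemical signals through the vasculature, and leaves that were not hit respond with jasmonate synthesis and new transcription within hours. OPR3 encodes the peroxisomal 12-oxophytodienoate reductase, which reduces the cyclopentenone OPDA on the main route to jasmonic acid. The design therefore asks which changes in distant leaves are seen in both the line with and the line without this step. Jasmonate is also known to restrain leaf growth, in which expansins loosen the cell wall. The annotation used gives no probe set for OPR3, and the lesion itself was not examined here.

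Column means lay between 5.8954 and 5.8956. The mesophyll genes RCA, LHCB4.1 and PRK, 3 of 7 written markers, lay between 12.21 and 13.57 in all arrays, the guard cell gene FAMA between 6.06 and 6.45, and the root gene PYK10 between 3.62 and 3.92, under the level limit. No marker of trichome and epidermis, phloem, xylem, seed or flower was named on the array. Bacterial spike-in transcripts, whose 5' and 3' ends are measured by separate probe sets, gave a lower 5' end in wounded wt: the mean log2 difference between the ends (5' minus 3') over 8 pairs was -2.0 there, and between -1.29 and -1.16 in the other 3 arrays. The plant actin pair showed -1.52 in wounded wt and -0.95 to -1.16 elsewhere, whereas the GAPDH and ubiquitin pairs lay between 0.02 and 0.22 in every array. The part of this array difference in the wt decreases was not tested.

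The members were above the level limit of 4.73 in control leaves. In wt control their log2 levels ran from 5.35 to 11.42 with a median of 7.58, and in opr3 control from 5.68 to 11.19 with a median of 7.56. After wounding the range was 4.20 to 10.20 with a median of 6.25 in wt, and 4.31 to 10.00 with a median of 6.19 in opr3. The median control level of the members was at percentile 68.1 of all tested probe sets, and none lay under the limit in either control array. Both follow in part from the rule, which asks for a control value at least 1 above the wounded value in each line. For probe sets lower in wt alone the percentile was 59.4, and for those lower in opr3 alone 62.1. In wounded leaves 4 members were under that level in wt and 2 in opr3, with 1 under it in both, so that the folds of 5 members are approximate and are given with the word about.

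**Figure D1:**
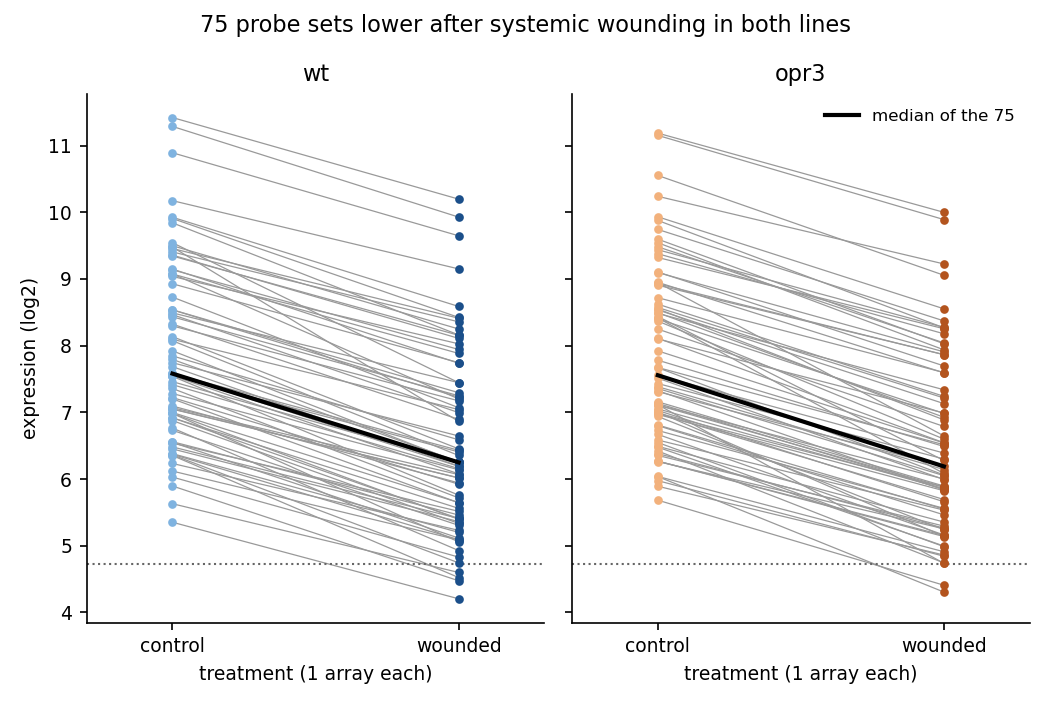
Expression (log2) of the 75 members in control and wounded plants, wt on the left and opr3 on the right, with 1 array per column of points, a grey line per probe set and the black line for the median. The medians go from 7.58 to 6.25 in wt and from 7.56 to 6.19 in opr3, and a few wounded points lie under the dotted level limit of 4.73.

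The size of the decrease was moderate and close to equal in the lines. The median difference was -1.26 in wt (2.39-fold lower) and -1.29 in opr3 (2.45-fold lower), against -0.05 and -0.03 for all tested probe sets. The quartiles ran from -1.5 to -1.14 in wt and from -1.5 to -1.13 in opr3. Of the members, 3 were at least 3-fold lower in both lines, and 1 was at least 4-fold lower in both. These counts come after the exclusions by name. BHLH101, BZIP61, AT4G27280 and AT3G07010, which were left out, also lay past 3-fold in both lines. Their differences ran from -1.97 to -1.64 in wt and from -2.26 to -1.91 in opr3. For 74 of the 75 both control arrays lay above both wounded arrays, which was so for 34.4% of all tested probe sets; the rule on each line nearly fixes this. The exception was the unnamed probe set 252911_at, with 7.74 in wt control, 6.65 in wt wounded, 6.58 in opr3 control and 5.53 in opr3 wounded, which was 2-fold lower in opr3 with or without wounding and is named here because of that count.

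**Figure D2:**
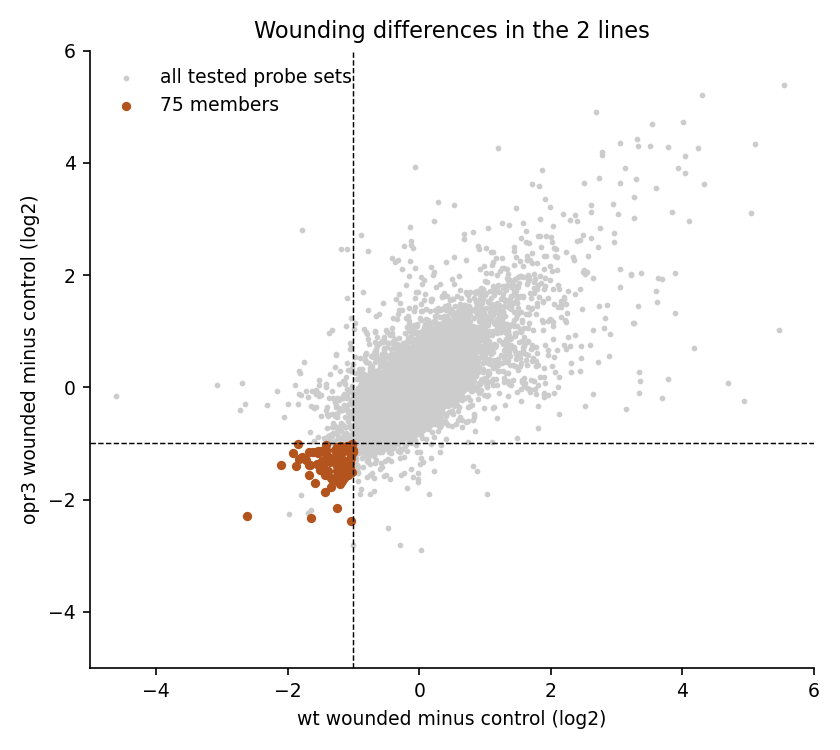
Wounded minus control differences (log2) in wt on the horizontal and in opr3 on the vertical axis, for all 14599 tested probe sets in grey and the 75 members in colour, with dashed lines at the limits of -1. The members fill the corner beyond both limits, beside the 5 grey points left out by name, and reach -2.61 in wt and -2.38 in opr3.

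Of the 75 probe sets, 40 had 1 named gene (53.3%, against 54.6% of all tested probe sets), 1 matched several genes and 34 had no gene in the annotation used. The rule leaves out genes by name, by family symbols such as ERF, MYB or CYP, and by plastid origin. It could not act on the 34 without a gene, which may include such genes. All 40 genes were distinct. The platform annotation carries no protein descriptions, and 34 of the 40 genes have only a locus name. Families are given below for 29 of them from general knowledge of Arabidopsis, grouped after the values were seen, and the other 11 are named without a role. The 34 probe sets without a gene had wt control levels of 6.12 to 11.42 and wounding differences with a median of -1.25 in wt and -1.32 in opr3.

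Expansins, which loosen cell walls during growth, had a pair of members. EXPB1, a beta-expansin, was at 6.99 in wt control, 5.40 in wt wounded, 6.94 in opr3 control and 5.24 in opr3 wounded. Its controls stood well apart from its wounded arrays. It was 3.01-fold lower in wt and 3.24-fold lower in opr3, the sole member with a named gene beyond 3-fold in both. BHLH101, BZIP61, AT4G27280 and AT3G07010, which were left out by name, had larger decreases than EXPB1 in both lines. EXPA8, an alpha-expansin, was at 11.29 and 9.93 in wt and at 11.15 and 9.89 in opr3 (control, then wounded). It was among the members with the highest control level and was 2.56-fold and 2.40-fold lower, with opr3 at -0.13 relative to wt in controls and at -0.04 after wounding.

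The rest of the expansin list did not share this pattern as a whole. Of 18 named expansin genes 9 were tested. Of these, 3 were at least 2-fold lower in wt (1.79% of all tested probe sets) and 2 in opr3 (1.68%). None was higher in either line (3.95% of all tested probe sets were higher in wt and 4.85% in opr3). The medians were -0.38 in wt and -0.36 in opr3. EXPB3 was about 2.02-fold lower in wt (5.49 and about 4.48) and about 1.68-fold lower in opr3. EXLB1, an expansin-like gene, had differences of -0.87 and -0.36, and EXPA16 of -0.38 and -0.45. EXPA15 was near no difference, at -0.11 and -0.05. In the other direction lay EXLA1, at 0.57 in wt and 0.91 in opr3, and EXLA2, at 0.28 and 0.64, while EXPA4 was at -0.16 in wt and 0.70 in opr3. The expansins thus ran from clear decreases to small increases, and the ones furthest down are those the rule selected.

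**Figure D3:**
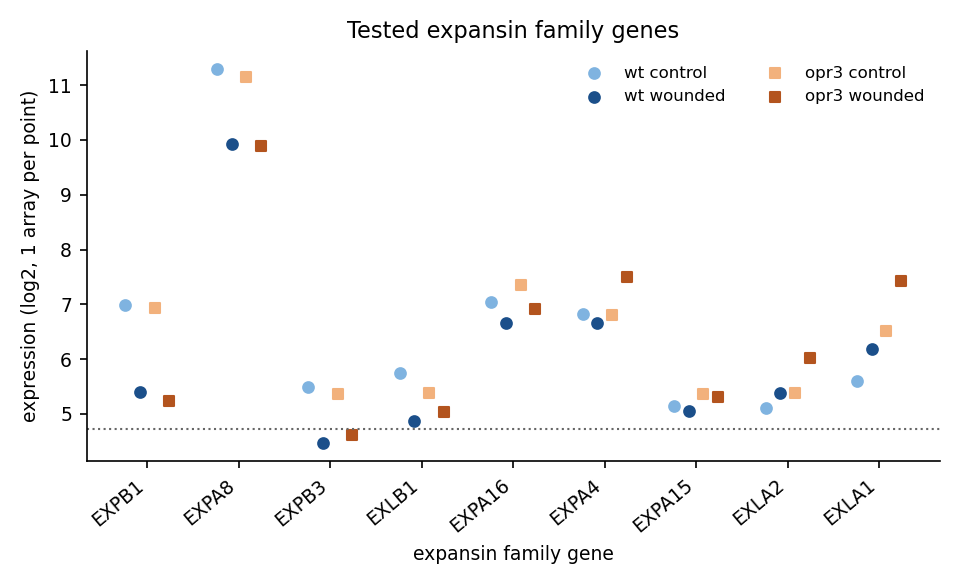
Expression (log2) of the 9 tested expansin family genes, ordered by their wounding difference in wt, with 1 point per array. EXPB1 and EXPA8 are lower in both wounded arrays by more than 2-fold, EXPB3 by that much in wt alone, and EXLA1 and EXLA2 are higher in the wounded arrays of each line.

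The other wall genes that could be matched on symbols and synonyms gave no member. AT3G07010, left out by name at -1.70 in wt and -2.25 in opr3, had no match in these lists, so they do not cover every wall gene. Xyloglucan endotransglucosylases, which cut and rejoin wall polymers, had 4 tested genes, none lower by 2-fold in either line. Of all tested probe sets, 1.79% were that much lower in wt and 1.68% in opr3, so 4 genes are too few to set against these shares. XTH18 was about 2.83-fold higher in wt (4.43 to 5.93) and 1.24-fold higher in opr3. The 3 tested pectin enzymes had differences between -0.21 and 0.16 in wt and between -0.71 and 0.22 in opr3.

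Proteins with leucine-rich repeats and proteases were a further group. DRT100, a leucine-rich repeat protein first found as a plant gene that helps bacteria tolerate DNA damage, was at 9.84 and 8.16 in wt and at 9.60 and 8.03 in opr3, 3.20-fold and 2.97-fold lower. AT5G12940, of the same repeat family, was at 6.45 and 5.36 in wt and at 6.55 and 4.99 in opr3. Its controls differed by 0.10, and its decrease was 2.13-fold in wt and 2.95-fold in opr3. The aspartyl protease genes AT1G66180 and AT1G09750 had high control levels. AT1G66180 was at 9.07 and 7.20 in wt and at 9.10 and 7.70 in opr3, and AT1G09750 at 9.92 and 8.59 and at 9.88 and 8.27. The former was lower by 3.66-fold in wt and 2.65-fold in opr3, and the latter by 2.53-fold and 3.05-fold, so that the line with the larger decrease was not the same for this pair. SCPL34, a serine carboxypeptidase-like protein, was at 7.54 and 5.76 in wt and at 7.38 and 6.14 in opr3.

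Enzymes of lipid and small-molecule metabolism were also present. AT1G29660, of the GDSL lipase family, was at 9.91 and 8.42 in wt and at 9.74 and 8.37 in opr3, and was 2.79-fold and 2.59-fold lower. AT4G18970, of the same family, was 2.22-fold lower in wt and 2.87-fold lower in opr3. Short-chain dehydrogenases related to tropinone reductase were represented by AT2G29310 and AT1G07440. AT2G29310 was at 8.54 and 7.23 in wt and at 8.55 and 6.89 in opr3, and AT1G07440 at 9.34 and 8.16 and at 9.54 and 7.94. Both were lower by a larger amount in opr3 (3.17-fold and 3.04-fold) than in wt (2.48-fold and 2.28-fold). AT2G32090, of the glyoxalase family that detoxifies reactive aldehydes, was at 9.46 and 8.41 in wt and at 9.44 and 8.27 in opr3, near the limit in each. AOP1, a 2-oxoglutarate-dependent dioxygenase gene of the locus that controls aliphatic glucosinolate side chains, was 2.1-fold lower in wt and 2.09-fold lower in opr3. The peroxidase gene AT1G71695 was 2.37-fold and 2.30-fold lower, the tautomerase gene AT5G57170 2.06-fold and 2.56-fold, and AT4G12980, of the cytochrome b561 family, 2.18-fold and 2.75-fold.

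Among the members given a family, 5 encode protein kinases; the share of kinases among all tested probe sets was not counted, since the annotation has no descriptions. Their wounding differences ran from -1.21 to -1.03 in wt and from -1.36 to -1.06 in opr3, and in wt all 5 were smaller decreases than the median of -1.26 over the 75. AT4G02630 was at 7.46 and 6.25 in wt and at 7.05 and 5.85 in opr3, a line difference that was present before and after wounding. AT1G70740 was near background after wounding, at 5.63 and 4.6 in wt and 5.98 and 4.84 in opr3, and was about 2.04-fold and 2.19-fold lower. AT3G13690 was 2.28-fold and 2.56-fold lower, AT5G51560, a kinase with leucine-rich repeats, 2.14-fold and 2.17-fold, and AT1G54820 2.29-fold and 2.09-fold.

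Genes of ubiquitin ligases, chromatin, DNA and RNA made up the next set. AT3G13672, listed as SINA2 in the gene table and related to ubiquitin ligases of the SINA type, was at 6.35 and 4.52 in wt and at 5.68 and 4.41 in opr3. It was about 3.55-fold and 2.42-fold lower, and both wounded values lay under the level limit. AT3G49810, a U-box protein, was at 6.54 and 5.52 in wt and at 6.67 and 5.16 in opr3, just inside the limit in wt. The F-box gene AT4G00755 was 2.46-fold and 2.43-fold lower.

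HIS1-3, the stress-inducible linker histone variant, was at 6.98 and 5.06 in wt and at 6.73 and 5.56 in opr3. Its 3.8-fold decrease was the largest of any named member in wt, against 2.25-fold in opr3. AT3G12710, of the DNA glycosylase superfamily, was at 6.76 and 4.93 in wt and at 6.26 and 5.25 in opr3, 3.57-fold and 2.01-fold lower. For both of these genes wt was the higher line in controls and the lower line after wounding. The RNA-binding protein gene AT1G76460 was at 8.43 and 7.25 in wt and at 8.72 and 7.60 in opr3, and AT1G22330 of the same kind was about 2.68-fold lower in wt and 2.04-fold in opr3. AT1G22160, a zinc finger protein of the FLZ type, was 2.89-fold and 2.24-fold lower.

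Among genes given no role here, AT3G13000 had the lowest mean difference of all named members. It was at 6.55 and 5.12 in wt and at 7.01 and 5.14 in opr3, 2.70-fold and 3.64-fold lower, and the lines differed in controls but not in wounded plants, where 0.02 separated them. AT5G45310 was at 7.92 and 6.25 in wt and at 7.92 and 6.54 in opr3. AT4G04630 was at 8.07 and 6.35 in wt and at 7.78 and 6.49 in opr3. AT5G05250 was under the level limit in opr3 wounded alone, at 6.03 and 4.83 in wt and at 6.04 and 4.31 in opr3, and was 2.30-fold and about 3.32-fold lower. AT3G01960 was 2.91-fold lower in wt and 2.20-fold in opr3, AT4G01390 2.68-fold and 2.16-fold, and AT2G20210 2.00-fold and 2.18-fold. AT1G67910 was 2.94-fold lower in wt and 2.58-fold in opr3, AT5G06270 2.61-fold and 2.81-fold, AT2G36430 2.81-fold and 2.19-fold, and AT3G52920 2.21-fold and 2.16-fold. The 15 named-gene members outside the naming rule, given above for their family or to complete the account, had differences of -1.56 to -1.05 in wt and of -1.52 to -1.03 in opr3.

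**Figure D4:**
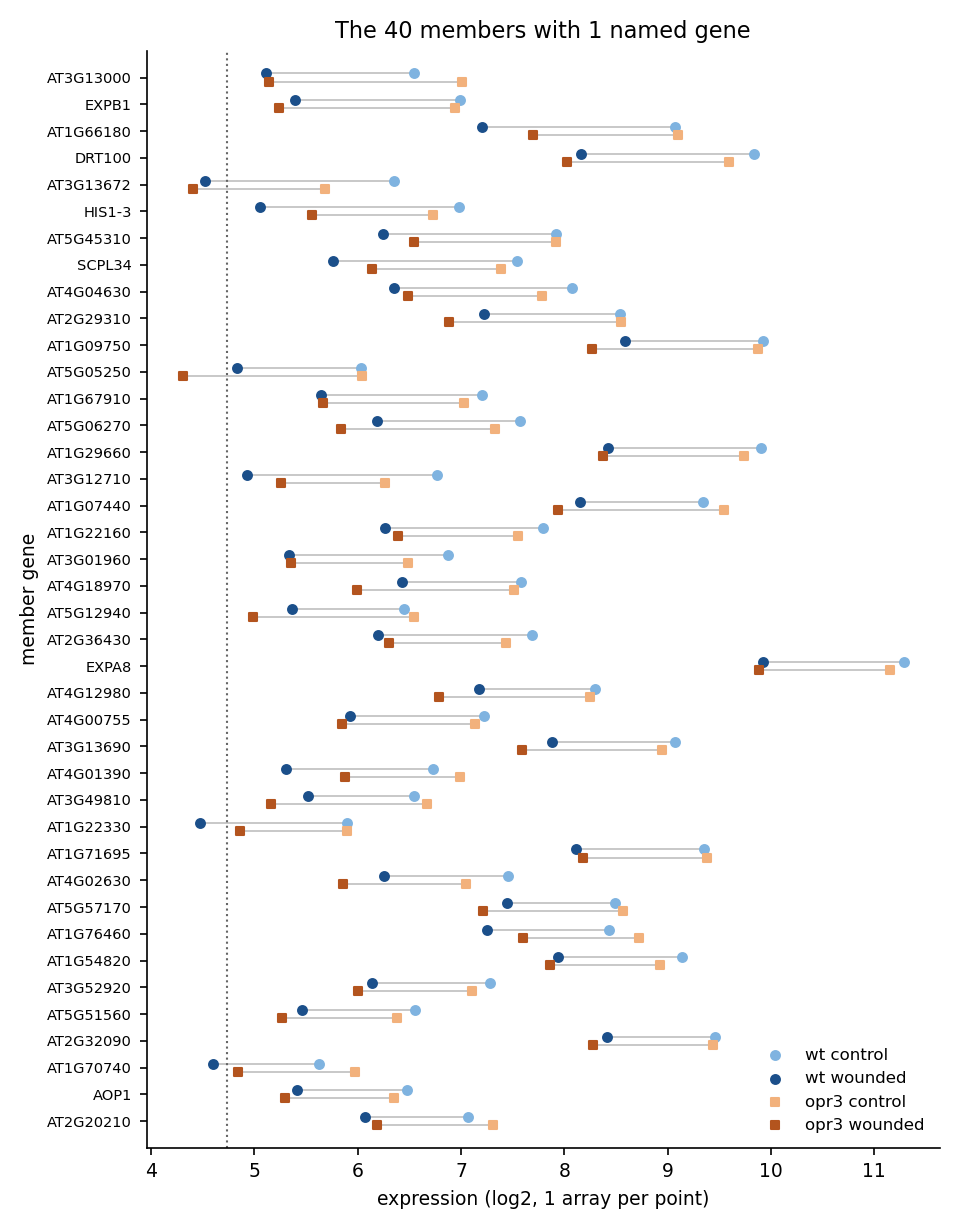
Expression (log2) of the 40 members with 1 named gene, in rows ordered from AT3G13000 with the lowest mean difference at the top, with circles for wt, squares for opr3, light for control and dark for wounded plants. In every row the dark symbols lie to the left of the light ones, and the level itself differs by more between genes than between arrays.

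Among the members, the largest decreases belonged to probe sets with no named gene. This ranking leaves out the genes excluded by name, of which BZIP61 was at -1.97 in wt and -2.26 in opr3. AT1G13650, also excluded, was at -1.01 in wt and -2.82 in opr3. The probe set 261226_at was at 9.48 in wt control, 6.86 in wt wounded, 8.94 in opr3 control and 6.65 in opr3 wounded. It was 6.12-fold lower in wt and 4.91-fold lower in opr3, and is the single member beyond 4-fold in both. The probe set 247543_at was at 7.36 and 5.72 in wt and at 8.42 and 6.08 in opr3, 3.12-fold and 5.04-fold lower. Another probe set, 248448_at, is named because it alone had a decrease at least 2-fold larger in opr3 than in wt. It was at 6.12 and 5.09 in wt and at 7.11 and 4.74 in opr3, 2.05-fold and 5.20-fold lower.

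The sizes of the decrease in the lines were weakly related. Across the 75 members the differences in the lines, which share no array, had a Pearson's r of 0.22 and a Spearman's rho of 0.20; the rule had cut off every value above -1, and members are not independent replicates. The decrease was larger in opr3 for 34 members (45.3% of 75, where 46.0% of all tested probe sets had the lower difference in opr3) and larger in wt for 41. The difference of responses, opr3 minus wt, had a median of 0.02 and quartiles of -0.24 and 0.18 over the members. Over all tested probe sets the median was 0.03 and the quartiles were -0.18 and 0.25, a similar spread. Within 0.5 of equality lay 65 members, and the share of all tested probe sets within it was not counted. Besides 248448_at none passed 2-fold, where 1.32% of all tested probe sets had a response at least 2-fold lower in opr3 and 2.07% at least 2-fold higher. The rule removes probe sets with a large difference of responses, so this closeness is in part its product. Control level and mean difference had a Spearman's rho of -0.07 across the 75.

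The lines were compared in the same condition as well, with the same 4 arrays that entered the rule. In control arrays the opr3 minus wt difference had a median of -0.05 over the members and -0.04 over all tested probe sets. Opr3 was the higher line for 29 members (38.7%, against 41.2% of all tested), and 2 members were at least 2-fold higher (0.418% of all tested) and 1 at least 2-fold lower (0.575%). The 2 were 247543_at and 252193_at, at 1.06 and 1.02, and the 1 was 252911_at at -1.16. Among named members the control difference ran from -0.67 for AT3G13672 to 0.46 for AT3G13000. Next to these lay AT3G12710 at -0.50, AT4G02630 at -0.41, AT3G01960 at -0.39 and AT4G04630 at -0.29 on the lower side. On the upper side lay AT1G70740 at 0.35, AT1G76460 at 0.29, AT4G01390 at 0.26 and AT2G20210 at 0.24.

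In wounded arrays the opr3 minus wt difference had a median of -0.08 over the members and 0.00 over all tested probe sets. Opr3 was the higher line for 31 members (41.3%, against 50.5% of all tested), 2 were at least 2-fold higher (1.34% of all tested) and 1 at least 2-fold lower (1.66%). The 2 were 263443_at at 1.11 and 255753_at at 1.08, which were 0.39 and 0.61 in controls, and the 1 was again 252911_at at -1.11.

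**Figure D5:**
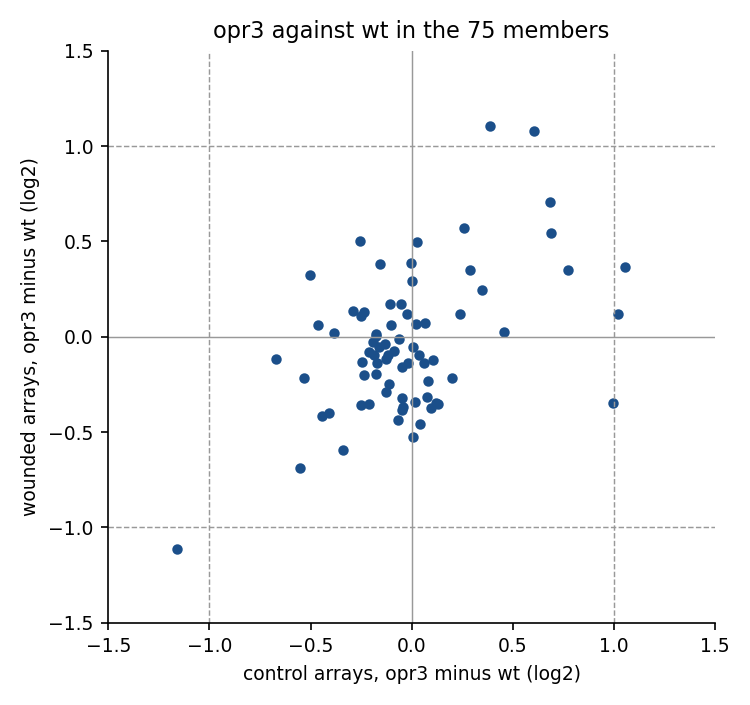
Opr3 minus wt differences (log2) of the 75 members, in control arrays on the horizontal and in wounded arrays on the vertical axis, with dashed lines at 2-fold. Most points gather around the origin, and 1 point, 252911_at, lies beyond -1 on both axes.

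The 155 probe sets lower in wt alone and the 161 lower in opr3 alone show how the members differ from their nearest relatives. The same exclusions were made, again only where a gene was named. These groups were cut from the same arrays, and their direction follows in part from the cut. In the group lower in wt alone, 20.6% were higher in opr3 than in wt in controls, with a median of -0.15, and 91.6% after wounding, with a median of 0.55. In the group lower in opr3 alone the shares were 76.4% (median 0.22) and 21.7% (median -0.24). The members, at 38.7% and 41.3%, lay between these in both conditions. In the line where it missed the limit, the first group had a median difference of -0.42 (opr3) and the second of -0.66 (wt). The 40 named member genes had a median genomic length of 1808 bases in the gene table, against 2318.5 bases for 7938 of 7972 tested named probe sets, 2518.5 for the group lower in wt alone and 2199 for the group lower in opr3 alone.

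On chromosome 3, 5 of the 8 named members (DRT100, AT3G12710, AT3G13000, AT3G13672 and AT3G13690) lay within a stretch of 138 protein-coding genes, which was noticed after the values were seen and was not tested. With protein-coding genes put in the order of assembly TAIR10.1, the closest members were AT3G13672 and AT3G13690, with 4 genes between them. DRT100 and AT3G12710 had 10 between them, and AT1G22160 and AT1G22330 had 16.

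Few genes of regulatory pathways could be examined. Of 26 lists of pathways and families, 13 had a tested gene when matched on symbols and synonyms, with 40 genes in all. Of these 40, EXPB1 and EXPA8 were lower in both lines, where 0.548% of all tested probe sets were. Lists of families that need protein descriptions, such as GDSL lipases and peroxidases, could not be counted this way, although members given above belong to them. The regulators BZIP61 and BHLH101, the latter of the iron deficiency response, met both limits and were left out by name. GI, a clock gene, had differences of -0.08 in wt and 0.16 in opr3. The sugar-responsive kinase subunit gene AKINBETA1 was at -0.34 and -0.55, the iron regulator PYE at -0.35 and -0.50, and the cytokinin response regulator RR16 at -0.24 and -0.40. Each of the 3 lay on the lower side in both lines without reaching 2-fold. The gibberellin receptors GID1A and GID1B went the other way, at 0.99 and 0.97 and at about 0.99 and 1.28. ARR15, the other tested cytokinin response gene, was at 0.19 in wt and -0.28 in opr3. Of 3 tested Aux/IAA repressors of auxin signalling none passed 2-fold, with medians of about -0.16 in wt and -0.44 in opr3. Of all tested probe sets, 1.79% were 2-fold lower in wt and 1.68% in opr3, so 3 genes are too few to set against these shares. The wt median is that of IAA31, which lay under the level limit in both wt arrays (4.03 and 3.87). Of 3 LHCB4 genes of the light-harvesting antenna, LHCB4.3 was 2.02-fold lower in opr3 but at 0.18 in wt.

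Of 12 touch-responsive genes in the list, 7 were named on the array and 6 were tested, and none was a member. The rule leaves out symbols starting with WRKY, so WRKY53 could not be a member. Of the 6, 1 was 2-fold higher in wt (3.95% of all tested probe sets) and 1 lower in opr3 (1.68%), with medians of 0.28 and -0.61. The 1 higher in wt was PUB23, which lay under the level limit in wt control (4.66). ARL was at -0.86 in wt and -0.31 in opr3 and WRKY53 at -0.26 and -0.53, while PUB23, CML38 and STZ were higher in wounded wt and lower in wounded opr3 than in the control of that line. EXO, a brassinosteroid-responsive gene, was at 6.33 and 6.39 in wt and at 8.47 and 7.14 in opr3, so that its decrease in opr3 came with a control level that was 2.14 above wt. Control differences ran from -1.16 to 1.06 over all 75 members and from -0.67 to 0.46 over the named ones.

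The members nearest to the limit show how fine the selection is. By the smaller of their decreases, AT2G20210 (-1.003 in wt), AT3G12710 (-1.01 in opr3) and AT3G49810 (-1.02 in wt) were just inside. AT4G04750, at -0.9997 in wt and -1.004 in opr3, AT1G77580, at -1.305 and -0.9995, and AT4G30020, at -0.9933 and -1.073, were just outside. These 6 genes are alike in the smaller of their decreases, whereas the larger one reached -1.84 for AT3G12710 in wt and -1.51 for AT3G49810 in opr3.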

How the data were processed

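The authors deposited RMA-normalized log2 values, 1 per probe set and array; the submitters' processing notes name RMA and Partek but no versions, and the annotation and build behind them are not stated there. RMA shrinks low values, which makes the folds of weak genes too small. Per the labels, 10 ug of total RNA was turned into biotin-labelled cRNA for each array. The table held 22810 rows, of which 64 were array controls. The platform annotation paired 13513 plant probe sets with 1 gene (13436 found among the genes of TAIR10.1), 503 with several and 8730 with none.

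Differences between single arrays were taken on the log2 scale with pandas 2.3.3 in Python 3.11.15. No test was possible with 1 array per group, and the number of arrays limits the precision. The steps were run on simulated data, with changes placed only in probe sets well above the level limit and recovery required only at 3-fold and 4-fold. This does not show how the rule works for weaker members or near its 2-fold limit. The members and lists were chosen with earlier results of these data known. The platform table has no protein descriptions, so families defined by description were matched on symbols and synonyms only.

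Genes were named by rule: the 12 members with the lowest mean difference, the 6 with the highest control level, the 4 at each end of the difference of responses, the 5 at each end of the control difference, members of lists, and the 3 on each side of the limit. This gave 25 members, and others are named for their family, to account for every named gene, or because a count of 5 or fewer points to them. Of the lists, 1 probe set per gene (the highest mean) was used, and up to 4 further genes are named. In the expansin list all 9 tested genes are given. Lists with no tested gene were nitrate assimilation, phosphate and sulfur starvation, BTB/TAZ, CCT domain and B-box zinc fingers, F-box proteins, GDSL lipases, SAUR, aquaporins, cyclins, fasciclin and arabinogalactan proteins, lipid-transfer proteins, peroxidases and receptor-like kinases.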

Additional observations from a re-analysis of the deposited data

Results flagged for a closer look

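Differences that pointed in opposite directions, by at least 0.25 on the log2 scale each way, between the lines or between control and wounded plants were singled out among the members with a named gene and the tested genes of the lists. None of these differences was tested. Of the members, HIS1-3 was lower in opr3 than in wt in control arrays (-0.25) and higher in wounded arrays (0.50), and AT3G12710 likewise (-0.50 and 0.33). Of the touch-responsive genes, the wounding difference was about 1.1 in wt and -0.98 in opr3 for PUB23, 0.84 and -0.48 for CML38, and 0.49 and -0.69 for STZ. In PUB23 and CML38 opr3 was also higher than wt in control arrays (about 1.35 and 0.82) and lower in wounded arrays (-0.73 and -0.50). The same held for XTH18 (0.72 and -0.47) and LHCB4.3 (0.26 and -0.94).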

How the results depend on the processing

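Centring each array on its median gave 86 members, 74 of them among the 75, and quantile normalization gave 79, with 70 of the 75. Without a filter on low values the members were the same 75, and a filter raised to the 60th percentile left 71. The 4 medians over the members moved by less than 0.1 under these 4 settings. The members were chosen anew at the limit of -1 under each setting, so the small shift of the wounding medians follows in part from the rule. The count depends on the fold limit. At 1.5-fold there were 506 members, 1243 probe sets lower in wt and 1124 in opr3, and at 3-fold 3, 43 and 36, with 1 list gene lower in both lines in place of 2. Of 50 differences of the named members (25 in each line), all stayed past 2-fold under centring and 47 under quantile normalization, where AT3G49810, AT1G70740 and AT2G20210 came to -0.99, -0.99 and -0.98 in wt. No paired analysis was possible because each group has 1 array. The search of promoters for motifs was not run, since no promoter sequence was used here. Levels near background limit the folds of 5 members.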
